A study of Rattus norvegicus with 6 samples.

Results

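Ccl2, Cxcl1, Cxcl10 and Il6 are 3 inflammatory chemokines and interleukin 6, followed here in rat H9c2 cells with mutants of the BMP receptor BMPR2. They were taken by their Ensembl rat identifiers (ENSRNOG00000007159, ENSRNOG00000002802, ENSRNOG00000022256 and ENSRNOG00000010278, in that order), 4 of the 26404 genes counted. The set was chosen with earlier results of these data, or the promoter sequences, known. H9c2, spelled Hc92 in one label, is a myoblast line from embryonic rat heart. Its polyA RNA was sequenced in 6 libraries, 2 from cells given an empty vector, 2 from a BMPR2 tail domain mutant and 2 from a BMPR2 kinase domain mutant. The titles speak of mutants and the design text of cells that lack these domains. The labels do not say how the mutants were made, whether a line was 1 clone, or whether the replicates of a group were grown apart. A p-value here therefore reflects no more than how these libraries scatter, which may be technical.

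Chemokines are small secreted proteins that draw leukocytes along a gradient through G protein-coupled receptors. Ccl2, also called MCP-1, has adjacent cysteines near its amino end and recruits monocytes through Ccr2. Cxcl1 and Cxcl10 are CXC chemokines, with 1 residue between those cysteines. Cxcl1 recruits neutrophils through Cxcr2, and Cxcl10, induced by interferons, recruits activated T cells through Cxcr3. Interleukin 6 is a cytokine that signals through the shared receptor chain gp130 (Il6st) to Stat3. NF-kappaB, the transcription factor activated by microbial products and by inflammatory cytokines, induces these genes in many cell types. BMPR2 binds bone morphogenetic proteins, its kinase domain phosphorylates type I receptors, and its long cytoplasmic tail is not needed for that step. Inherited BMPR2 mutations underlie heritable pulmonary arterial hypertension, a disease in which Ccl2 and interleukin 6 are studied as mediators.

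The promoters are shown for the NF-kappaB letters that they share and the other motifs in which they differ. RefSeq promoters of the GRCr8 build, from 250 bases before to 50 bases after each annotated start, were matched by symbol for 3 of the 4 genes (Cxcl1, Cxcl10 and Il6), and Ccl2 was not matched. The counts were made on another build, Rnor_5.0. Each sequence is written 5′ to 3′ on the strand of its gene, and capitals mark every motif match. Cxcl1 lies at chr14:17479272-17479571 on the minus strand, Cxcl10 at chr14:15988816-15989115 on the plus strand and Il6 at chr4:5894526-5894825 on the minus strand.
Cxcl1: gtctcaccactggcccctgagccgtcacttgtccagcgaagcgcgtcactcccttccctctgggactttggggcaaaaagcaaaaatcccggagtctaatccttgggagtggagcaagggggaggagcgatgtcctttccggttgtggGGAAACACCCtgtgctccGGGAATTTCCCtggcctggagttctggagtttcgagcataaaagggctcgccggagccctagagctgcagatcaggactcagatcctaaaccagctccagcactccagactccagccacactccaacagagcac
Cxcl10: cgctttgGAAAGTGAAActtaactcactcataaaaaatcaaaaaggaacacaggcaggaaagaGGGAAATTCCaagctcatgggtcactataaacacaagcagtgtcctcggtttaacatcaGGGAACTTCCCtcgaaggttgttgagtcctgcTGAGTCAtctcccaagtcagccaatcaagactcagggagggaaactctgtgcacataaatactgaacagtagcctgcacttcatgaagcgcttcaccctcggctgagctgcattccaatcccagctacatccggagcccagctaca
Il6: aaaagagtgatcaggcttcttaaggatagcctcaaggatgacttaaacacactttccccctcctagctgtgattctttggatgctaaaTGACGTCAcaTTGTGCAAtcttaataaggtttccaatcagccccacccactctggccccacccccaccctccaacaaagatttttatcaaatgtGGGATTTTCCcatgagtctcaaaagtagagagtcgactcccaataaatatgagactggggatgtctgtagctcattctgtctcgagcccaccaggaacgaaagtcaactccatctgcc

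Both strands were searched for 6 motifs, chosen with earlier results of these data, or the promoter sequences, known. The shares of all promoters below are therefore a description and no test. The NF-kappaB letters (GGG, any 3 bases, TTCC) were found in each of the 3 promoters, against 5.37% of 33469 RefSeq rat promoters of the same length. Cxcl1 held 3 such matches, 2 of which overlap on opposite strands between positions -84 and -74 from the start, with the other between -102 and -93. Cxcl10 also held 3, of which 2 overlap on opposite strands between -128 and -118. Its other match lay between -187 and -178. Il6 held 1, between -68 and -59. Other letters differed between the 3 promoters. Only Cxcl10 held the interferon-response letters (GAAA, any 2 bases, GAAA, between -243 and -234, 3.92% of all promoters) and the AP-1 letters TGANTCA (between -96 and -90, 7.33%). Only Il6 held the CREB letters TGACGTCA (between -162 and -155, 1.83%) and the C/EBP letters TTNNGCAA (between -152 and -145, 10.6%). None of the 3 held GGCGCC, letters bound by BMP-activated SMADs, which occurred in 11% of all promoters. Apart from the NF-kappaB matches on opposite strands, no matches overlapped. A match is a stretch of letters, not a measured binding site, and a missing match says only that the letters are not in this window.

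**Figure D1:**
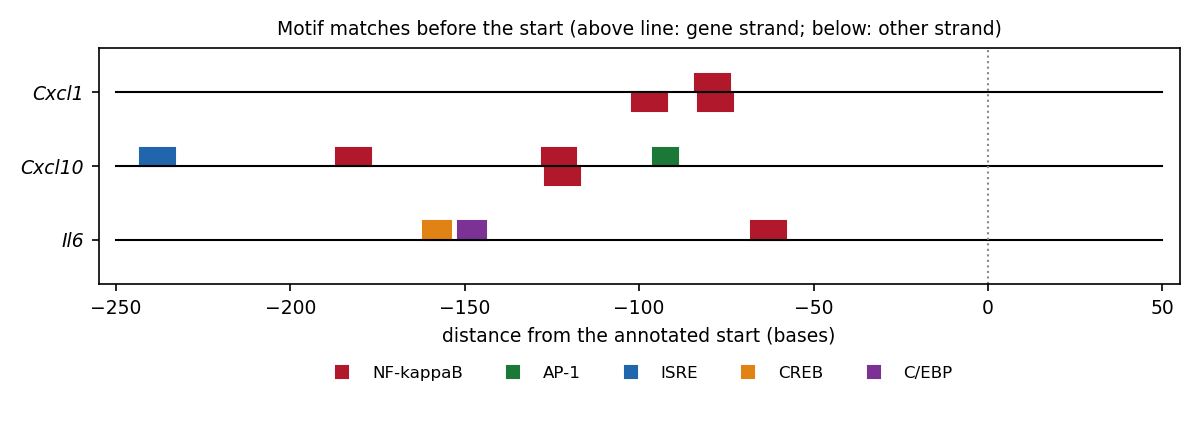
Motif matches in the promoters of Cxcl1, Cxcl10 and Il6, by distance in bases from the annotated start; boxes above a line are on the strand of the gene and boxes below it on the other strand. All 3 promoters hold NF-kappaB letters, and the remaining motifs drawn each occur in 1 promoter. GGCGCC, also searched for, occurs in none of them and is not drawn.

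The libraries held between 19116082 and 24936136 counts in genes, and 12221 genes, all 4 of these among them, passed the filter on low counts. Levels are in CPM, counts scaled to a common library size with the TMM factors. The 10 most counted genes took 16.0% of the counts in tail mutant replicate 2 and 19.9% to 22.1% in the other libraries. On the second principal component of log2 CPM the tail mutant replicates stood at 27.1 and -60.9, far apart. The other replicates stood at 6.87 and -9.03 (empty vector) and at -1.24 and 37.1 (kinase mutant) there. On the first, the replicates stood at -31.6 and -64.6 (empty vector), 18.9 and 27.4 (tail mutant), and 27.7 and 22.2 (kinase mutant). The files pair no identifier with a symbol, and 0 of them matched the RefSeq rat table. Bmpr2, the further chemokines, the NF-kappaB and interferon genes and the markers of leukocytes, endothelium, fibroblasts and muscle were therefore not looked up, so the labels and the cell type were not checked. In bulk RNA, fewer expressing cells and less RNA per cell cannot be told apart.

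Ccl2 was present in all libraries and ranged over 17.4-fold, but its levels did not follow the groups. In replicates 1 and 2 it stood at 3.15 and 14.3 CPM with empty vector, at 5.79 and 1.16 CPM with the tail mutant and at 18.6 and 1.07 CPM with the kinase mutant. The highest and the lowest library were thus the 2 replicates of the kinase mutant, and the libraries of every pair of groups overlapped. In counts these 2 libraries held 374 and 22 reads of Ccl2, with exact Poisson 95% intervals of 337 to 414 and 13.8 to 33.3, so counting error was small beside the gap. Averaged by group, Ccl2 was at 8.75 ± 7.92 CPM (empty vector), 3.48 ± 3.28 CPM (tail mutant) and 9.84 ± 12.4 CPM (kinase mutant; SD, n = 2 each).

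Cxcl1 had the smallest range of the 4 genes, 2.21-fold from the lowest to the highest library. For replicates 1 and 2 its levels were 6.67 and 12.6 CPM with empty vector, 13.7 and 7.25 CPM with the tail mutant and 14.8 and 7.31 CPM with the kinase mutant. Each group held 1 library near 7 CPM and 1 above 12 CPM, and the groups overlapped. The group levels of 9.66 ± 4.22, 10.5 ± 4.58 and 11.04 ± 5.28 CPM (SD, n = 2 each) for empty vector, tail mutant and kinase mutant differed far less than the replicates did.

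Cxcl10, the interferon-induced chemokine, was near the limit of detection. It had 13 and 11 counts in the empty vector libraries, 2 and 6 in the tail mutant and 4 and 3 in the kinase mutant, which is 0.482 and 0.537 CPM, 0.0912 and 0.290 CPM, and 0.199 and 0.146 CPM. Both empty vector libraries lay above all 4 mutant libraries. The depth does not separate them singly, however: the exact Poisson 95% interval of the lowest empty vector library, 0.257 to 0.824 CPM, overlaps that of each mutant library. Of the tested genes, 99.8% had a higher mean level. Cxcl10 met the filter, about 0.461 CPM in 2 libraries, only through the empty vector libraries. A gene that enters that way has to be lower in the other groups. Its lack of overlap with empty vector, and the sign of its differences below, are therefore given as a description and support nothing about the mutants.

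Il6 was measured at 2.78 and 3.66 CPM with empty vector, at 5.84 and 1.93 CPM with the tail mutant and at 5.82 and 4.82 CPM with the kinase mutant, for replicates 1 and 2. Both kinase mutant libraries lay above both empty vector libraries, while the tail mutant held the highest and the lowest library of all. Its group means were 3.22 ± 0.621 CPM (empty vector), 3.89 ± 2.76 CPM (tail mutant) and 5.32 ± 0.704 CPM (kinase mutant; SD, n = 2 each). Tail mutant replicate 2, low in Il6, had the smallest share of counts in the 10 most counted genes, 16.0%. Whether that bears on its Il6 level was not tested. Without tail mutant replicate 2 the log2 difference of Il6 between the tail mutant and empty vector was 0.86. It was 0.27 with all libraries and -0.73 without tail mutant replicate 1.

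**Figure D2:**
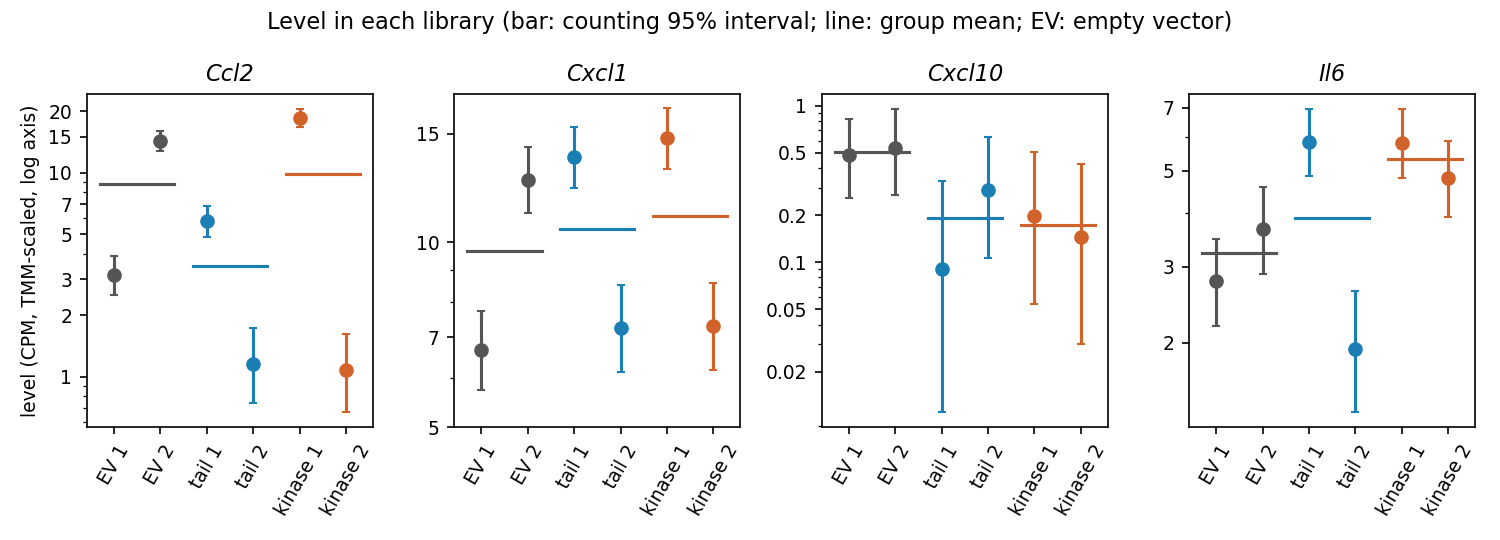
Level of each gene in each library in CPM on a log axis, with empty vector (EV) in grey, the tail mutant in blue and the kinase mutant in orange; points are libraries, bars exact Poisson 95% intervals for counting error only, and horizontal lines group means. Ccl2 spans 1.07 to 18.6 CPM within the kinase mutant alone. The empty vector libraries of Cxcl10 lie above its mutant libraries, at 13 and 11 counts, and it met the filter on low counts only through them.

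Tail mutant cells were first set against empty vector cells, to ask how these genes differ where the BMPR2 tail is altered. None of the 4 genes passed edgeR's quasi-likelihood test after Benjamini-Hochberg adjustment over all 12221 genes (0 of 4, against 0.00818% of all tested genes), and 0 of 4 reached an unadjusted p below 0.05, against 8.56%. DESeq2 and limma-voom also called 0 of 4, against 248 and 0 of all 12221 tested genes. In each, 0 of 4 had an unadjusted p below 0.05, against 9.52% of all tested genes in DESeq2 and 8.09% in limma-voom. Ccl2 had a log2 difference of -1.32 ± 1.39 (SE), an adjusted p of 0.832 in edgeR and a 95% interval from -4.73 to 2.08. The interval runs from far below to above no change. For Cxcl1 the log2 difference was 0.12 ± 0.50 (SE), with an interval from -1.10 to 1.35, and the adjusted p in edgeR was 0.965. Cxcl10 had a log2 difference of -1.40 ± 0.77 (SE), with an interval from -3.26 to 0.47, and its adjusted p in edgeR was 0.680. Both tail mutant libraries (2 of 2) lay below both with empty vector, as its entry through the filter fixed. Libraries were lower without overlap in 19.7% of all tested genes, a share from which nothing is read for Cxcl10. For Il6 the log2 difference was 0.27 ± 0.53 (SE), with an interval from -1.02 to 1.57 and an adjusted p in edgeR of 0.915. The median log2 difference was -0.60 over the 4 genes and 0.01 over all tested genes. The former counts Cxcl10 with its fixed sign, so nothing is read from it.

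Leaving out single libraries turned the direction of 3 of these 4 differences. That of Cxcl10 did not turn, its sign being fixed by its entry through the filter. The log2 difference of Ccl2 was 0.14 without empty vector replicate 2, and -2.90 when tail mutant replicate 1 was left out. That of Cxcl1 was -0.27 without empty vector replicate 1 and -0.41 leaving out tail mutant replicate 1, and that of Il6 was -0.73 without tail mutant replicate 1.

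Kinase mutant cells were set against the same empty vector libraries. Again 0 of 4 genes passed in edgeR (against 0.00818% of all tested genes), and 0 of 4 had an unadjusted p below 0.05 (against 10.8%). In DESeq2 and in limma-voom 0 of 4 were called, against 361 and 0 of all 12221 tested genes. An unadjusted p below 0.05 was reached by 0 of 4 in each, against 11.8% of all tested genes in DESeq2 and 10.4% in limma-voom. Il6 lay higher in the kinase mutant, with 2 of 2 libraries above both of empty vector, by 0.73 ± 0.53 (SE) on the log2 scale, a 1.65-fold difference. Its 95% interval ran from -0.56 to 2.02 and its adjusted p in edgeR was 0.652. Libraries were higher without overlap in 24.2% of all tested genes, so that 1 of 4 is near the background. Cxcl10 was lower in 2 of 2 kinase mutant libraries, again fixed by its entry through the filter, with a log2 difference of -1.53 ± 0.78 (SE), an interval from -3.42 to 0.37 and an adjusted p in edgeR of 0.533. Libraries were lower without overlap in 26.4% of all tested genes, from which again nothing is read for Cxcl10. For Ccl2 and Cxcl1 the log2 differences were 0.17 ± 1.35 and 0.20 ± 0.50 (SE). The interval of Ccl2, from -3.13 to 3.48, spans ratios from 0.114-fold to 11.1-fold, and that of Cxcl1 ran from -1.03 to 1.42. The adjusted p in edgeR was 0.971 for Ccl2 and 0.911 for Cxcl1. The median log2 difference was 0.19 over the 4 genes, again with Cxcl10 and its fixed sign among them, and -0.01 over all tested genes.

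Il6 stayed above empty vector in each of the 14 alternatives, with log2 differences from 0.54 to 0.93, and passed in none. Because the Il6 libraries of these groups did not overlap, leaving out 1 library could hardly turn its sign. The steady direction of Il6 therefore adds nothing to that lack of overlap. Ccl2 fell on either side, at -3.02 without kinase mutant replicate 1 and 1.64 without empty vector replicate 2. Cxcl1 turned to -0.40 without kinase mutant replicate 1 and to -0.20 without empty vector replicate 1.

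The mutants were also compared directly. Here too 0 of 4 genes passed in edgeR, where 0% of all tested genes did, and 0 of 4 had an unadjusted p below 0.05 (against 3.67%). DESeq2 and limma-voom called 0 of 4, against 12 and 0 of all 12221 tested genes. At an unadjusted p below 0.05 there were 0 of 4 in each, against 4.52% of all tested genes in DESeq2 and 3.21% in limma-voom. The libraries of the mutants overlapped for each of the 4 genes (0 of 4 apart, against 30.0% of all tested genes). The log2 difference was -1.50 ± 1.39 (SE) for Ccl2, with a 95% interval from -4.91 to 1.92. It was -0.07 ± 0.50 (SE) for Cxcl1, from -1.30 to 1.15. It was 0.13 ± 0.85 (SE) for Cxcl10, from -1.92 to 2.19. It was -0.45 ± 0.53 (SE) for Il6, from -1.73 to 0.83. The adjusted p-values in edgeR lay between 0.926 and 0.986. Without tail mutant replicate 1 the log2 difference of Il6 became -1.46, with an unadjusted p of 0.0150 and an adjusted p of 0.181 in edgeR. In that fit 19.2% of all tested genes had an unadjusted p below 0.05. Without tail mutant replicate 2 the difference of Il6 was 0.13. That of Ccl2 was -3.08 without tail mutant replicate 1, and 1.69 when kinase mutant replicate 1 was left out. For Cxcl1 and Cxcl10 it also changed sign when single libraries were left out, with ranges from -0.61 to 0.52 and from -0.88 to 0.73.

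**Figure D3:**
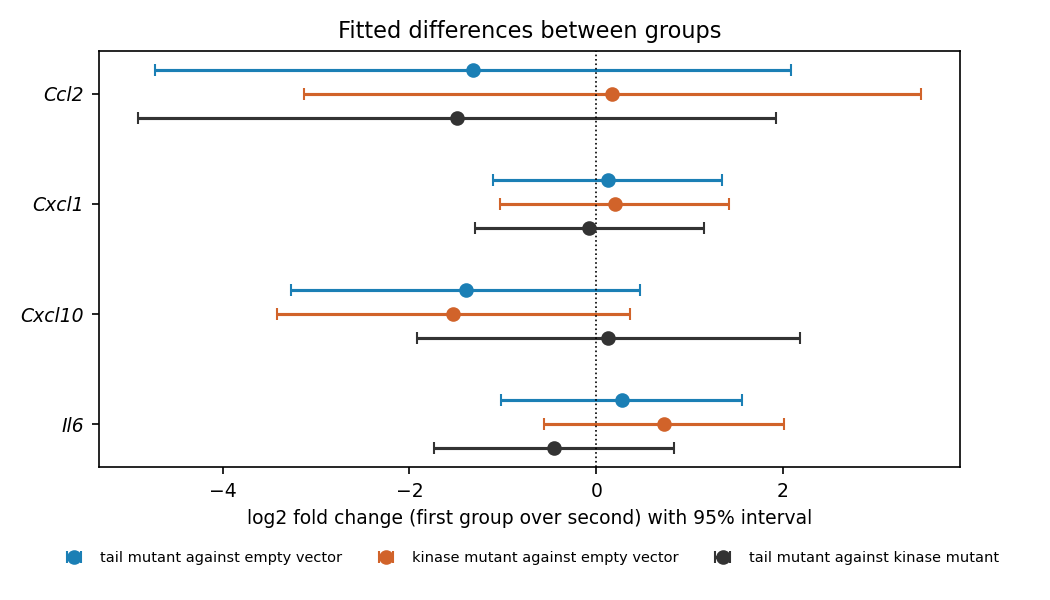
Log2 fold change of each gene in the 3 comparisons (points) with its 95% interval from the quasi-likelihood fit (bars). Every interval includes 0, and those of Ccl2 are the widest of the 4 genes, from -4.73 to 2.08 for the tail mutant against empty vector.

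**Figure D4:**
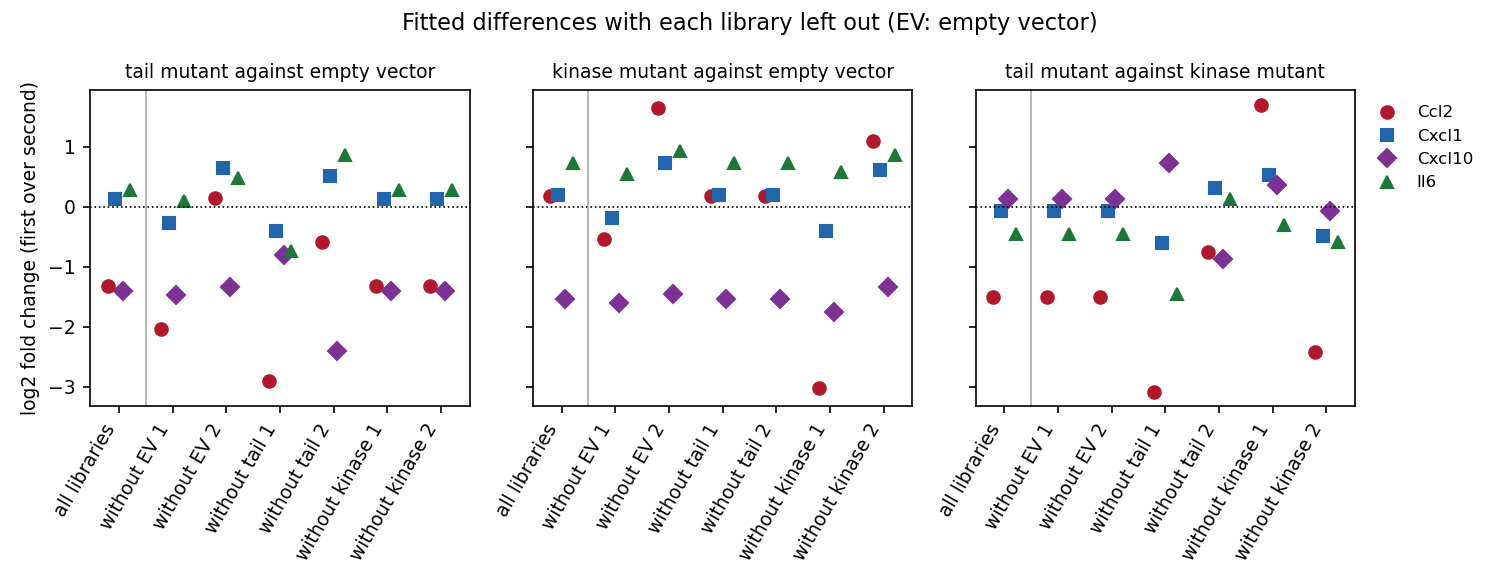
Log2 fold change of each gene with all libraries and with each library left out in turn, for the 3 comparisons (EV is empty vector). Ccl2 moves between -3.02 and 1.64 in the kinase mutant against empty vector, and Il6 between 0.54 and 0.93. The sign of Cxcl10 against empty vector was fixed by its entry through the filter.

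The spread between replicates of 1 group was unequal among the genes. Ccl2 differed 4.55-fold between the empty vector replicates, 4.995-fold between the tail mutant replicates and 17.4-fold between the kinase mutant replicates. Of all tested genes, 1.46%, 2.86% and 0.286% were at least as far apart in these 3 groups on the log2 scale. Among tested genes of like level (mean log2 CPM within 0.5, 934 genes) the shares were 1.61%, 3.96% and 0.428%, so that few genes of similar depth were as uneven. The coefficient of variation that edgeR gave Ccl2 was 87.6%, against 28.1% in common, and 1.14% of tested genes had a higher value.

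Cxcl1 differed 1.89-fold between the empty vector replicates, 1.89-fold between the tail mutant replicates and 2.02-fold between the kinase mutant replicates. Between 7.56% and 16.1% of tested genes were at least as far apart in the same group. Il6 differed 1.32-fold, 3.02-fold and 1.21-fold in that order, and for the tail mutant 6.42% of tested genes were at least as far apart. Cxcl10 differed 1.11-fold, 3.18-fold and 1.36-fold, and of the tested genes of like level 53.0% or more were at least as far apart in each group.

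**Figure D5:**
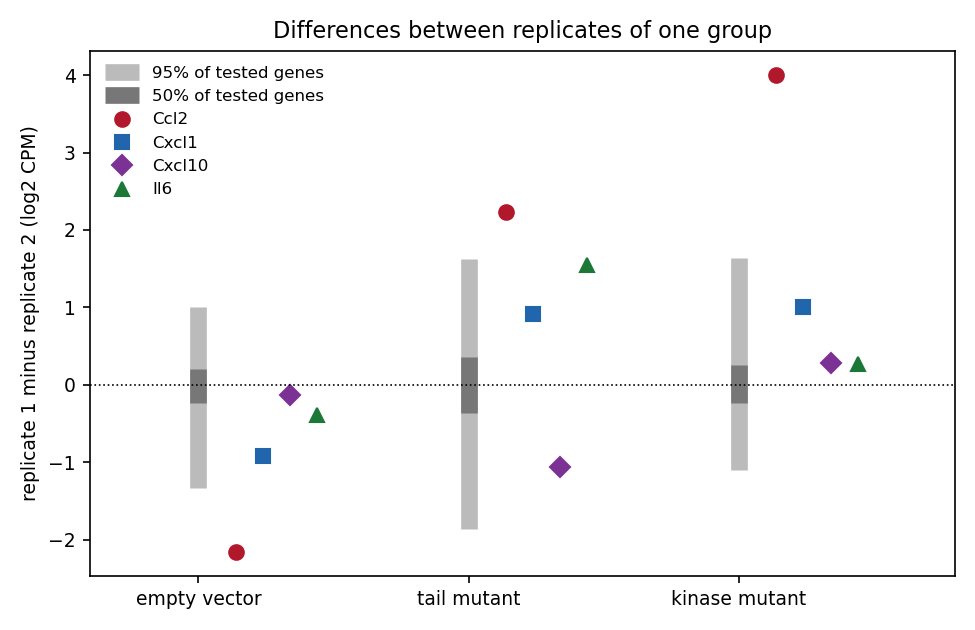
Replicate 1 minus replicate 2 of each group in log2 CPM for the 4 genes (symbols), beside the range that holds 95% (light grey) and 50% (dark grey) of all 12221 tested genes. Ccl2 lies outside the light range in all 3 groups, with the same sign as Cxcl1 and Il6 in each. For Il6 the sign in empty vector comes from the scaling alone, at 75 counts in both libraries.

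Ccl2 and Cxcl1 were uneven in the same libraries, and Il6 with them mainly in the tail mutant. Il6 had 75 counts in each empty vector library, so its order there comes from the scaling alone. In the kinase mutant it had 117 and 99 counts, with overlapping exact Poisson 95% intervals (4.81 to 6.97 and 3.92 to 5.87 CPM). In CPM the replicate with more Ccl2 also had more Cxcl1 and more Il6 in each group. These were replicate 2 of empty vector, replicate 1 of the tail mutant and replicate 1 of the kinase mutant. This arrangement of signs was found in 1257 genes, 10.3% of those tested. When every replicate difference had to reach 1.5-fold, Ccl2 and Cxcl1 were left among 72 genes, 0.589% of those tested, and at 2-fold Ccl2 among 26. The arrangement was noticed in these data, and no test was made of it. Over the 6 libraries Pearson's r of log2 CPM was 0.87 between Ccl2 and Cxcl1, 0.70 between Cxcl1 and Il6 and 0.50 between Ccl2 and Il6. Of the tested genes, 0.917% had a higher r with Ccl2 than Cxcl1 had, 3.79% a higher r with Cxcl1 than Il6 had, and 13.8% a higher r with Ccl2 than Il6 had. Cxcl10, at few counts, stood at 0.17 with Ccl2, -0.28 with Cxcl1 and -0.63 with Il6. The points of each r share their libraries, their depth and their scaling.

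The genes did not move in proportion, which ratios of counts within a library show without any scaling between libraries. For each count of Cxcl1 there were 0.472 and 1.14 counts of Ccl2 in empty vector, 0.422 and 0.160 in the tail mutant and 1.26 and 0.147 in the kinase mutant, for replicates 1 and 2. Ccl2 was thus the more uneven chemokine in each group. For each count of Cxcl1 there were 0.417 and 0.290 counts of Il6 in empty vector, 0.425 and 0.267 in the tail mutant and 0.394 and 0.660 in the kinase mutant. In empty vector and in the kinase mutant the library with less Ccl2 held more Il6 per count of Cxcl1, and in the tail mutant it held less. All 4 genes together took between 0.00115% and 0.00369% of the counts in genes.

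By the mean of Pearson's r with the 4 genes over the 6 libraries, the tested genes most alike in pattern were ENSRNOG00000023910 (mean r of 0.64) and ENSRNOG00000033348 (0.64). The least alike were ENSRNOG00000015888 (-0.63) and ENSRNOG00000001813 (-0.63). ENSRNOG00000033348 was at 95.7 and 154 CPM with empty vector, at 126 and 76.7 CPM with the tail mutant and at 145 and 77.7 CPM with the kinase mutant. Its higher library in each group was the one with more Ccl2. ENSRNOG00000015888 ran the other way, at 124 and 94.0 CPM, 118 and 146 CPM, and 98.5 and 135 CPM. These genes were picked by that mean r over the same libraries, so their patterns restate the choice and support nothing further. The mean r counts Cxcl10, at few counts, as much as each other member. The files do not pair these identifiers with names.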

How the data were processed

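PolyA RNA was sequenced from 6 libraries, 2 in each of 3 groups named in the sample titles. The authors deposited unnormalized read counts, 1 file a library, keyed by Ensembl rat gene. Reads were processed with HTSeq 0.6.1p1, STAR 2.4.0 and Trimmomatic 0.33 on build Rnor_5.0, per the submitters' processing notes. The annotation release and strand setting were not given in the sources used here, so overlapping antisense reads are not told apart. The 5 rows that name no gene were left out. They held 15.4% to 17.5% of all reads as reads in no gene and 27.3% to 31.5% as alignments that were not unique. The latter enter no gene's count, which can lower genes with similar copies, such as Cxcl1 among related CXC chemokines.

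The fit used edgeR 4.0.16 (R 4.3.3): filterByExpr by group (minimum count 10, total 15), TMM, robust quasi-likelihood fit with group as the only term over all 6 libraries (3 residual degrees of freedom, a median of 3.25 prior degrees of freedom), and Benjamini-Hochberg adjustment over 12221 genes with a threshold of 0.05. The SE is the size of the log2 difference over the square root of its F value. Log2 CPM used a prior count of 2. Alternatives were DESeq2 1.42.0, limma-voom (limma 3.58.1), other scalings and filters, a replicate block and leaving out each library. The scripts were tested on simulated data. The genes named are the 4 members, always, and the 2 genes most and 2 least alike by mean r. The members, lists and motifs were chosen with earlier results of these data, or the promoter sequences, known. Gene symbols of the members were given with their identifiers. Counting intervals cover counting error only.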

Additional observations from a re-analysis of the deposited data

How the results depend on the processing

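None of the 4 genes passed an adjusted p of 0.05 in any comparison under any alternative run, and the lowest adjusted p was 0.181 in edgeR. Of the alternatives that leave in all libraries, Ccl2 in the kinase mutant against empty vector turned to -0.50 with limma-voom and -1.02 with the replicate block (log2), Cxcl1 in the tail against the kinase mutant to 0.029 with library totals only, and Cxcl10 there to -0.057 with limma-voom; the cause was not tested. With each library left out in turn, the log2 difference for the tail mutant against empty vector ranged from -2.90 to 0.14 for Ccl2, -0.41 to 0.65 for Cxcl1, -2.41 to -0.80 for Cxcl10 and -0.73 to 0.86 for Il6. For the kinase mutant against empty vector it ranged from -3.02 to 1.64 for Ccl2, -0.40 to 0.72 for Cxcl1, -1.76 to -1.33 for Cxcl10 and 0.54 to 0.93 for Il6. For the tail against the kinase mutant it ranged from -3.08 to 1.69, -0.61 to 0.52, -0.88 to 0.73 and -1.46 to 0.13 in the same order. A group left with 1 library is assumed to vary like the others. The filter of 1 CPM in 2 libraries left out Cxcl10.

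Over all genes, the 1, 1 and 0 calls of edgeR (tail mutant and kinase mutant against empty vector, tail against kinase mutant) became 248, 361 and 12 with DESeq2, and 0 in each with limma-voom. They became 3 (tail mutant) with library totals only, 9 and 2 with no filter on low counts, and 0 and 0 with only the 4 libraries compared. Without single libraries the counts ranged from 0 to 21, from 0 to 2 and from 0 to 0, the 21 being without tail mutant replicate 1. With the replicate block they were 2, 2 and 0. The labels do not say whether the replicate numbers pair libraries across groups. Across genes, replicate differences of empty vector and tail mutant had an r of 0.12. Those of empty vector and kinase mutant had an r of -0.13 and those of the mutants -0.35. These values do not settle what the numbers stand for. With the kinase mutant numbers exchanged, a pairing chosen after seeing the data, 2 genes were called for the kinase mutant against empty vector and 0 between the mutants. Depth limits Cxcl10 most, at 2 to 13 counts per library.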
